A study of Mus musculus with 6 samples.

Results

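The genes described here build the photoreceptor cilium and move cargo along it. They comprise the intraflagellar transport (IFT) genes, the BBSome, carriers of lipid-anchored proteins, the MKS and NPHP modules of the transition zone, RPGR and its partner, the tubby family and the CEP genes of centrioles and basal bodies. Members were matched by gene symbol, under a rule set with earlier results of these data known, and 81 of the 9720 genes in the table matched. Pcare, Tctn2 and Tulp2 were not analysed here. RNA of sorted mouse cones was sequenced after poly(A) selection in 6 libraries, and levels are FPKM, fragments per kilobase of transcript after correction for library size. The eGFP-positive cones had been sorted by FACS out of dissociated retina. The 3 knockout libraries came from HRGPcre;Bmal1f/f;Z/EG mice and the 3 control libraries from HRGPcre;Bmal1f/+;Z/EG mice. Both groups thus carried the Cre transgene, driven by the human red and green cone pigment promoter, and the Z/EG reporter, which turns on eGFP after Cre has acted. A control cone keeps 1 copy of Bmal1 after recombination and is not wild type. All mice were C57BL/6 with mixed background, adult (labelled both as day 60 to 80 and as 2 to 6 months) and housed under 12 h light and 12 h dark. Neither the hour of collection nor the animals behind each library were found in the labels, so the p-values reflect library-to-library spread, part of which may be technical.

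The light-sensing outer segment of a cone is a modified primary cilium, joined to the cell body by a narrow connecting cilium that corresponds to a transition zone. Everything the outer segment holds is made in the inner segment and must pass that gate, carried by IFT trains, by the BBSome or by soluble carriers of lipid-anchored proteins. Mutations in many of these genes cause retinal degeneration, and BMAL1 is the clock activator that binds E-box elements in DNA.

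Summed cone markers were above summed rod markers in every library, but rod RNA was present too. Summed levels of 13 cone markers ranged from 5827 to 7061 FPKM in knockout libraries and from 4354 to 7357 FPKM in control libraries, and those of 15 rod markers from 2536 to 3642 FPKM in knockout and from 3015 to 3710 FPKM in control. The cone genes Opn1sw and Slc24a2 (15.4% of 13) and the rod genes Reep6, Nr2e3 and Cnga1 (20% of 15) were apart, against 9.39% of all tested genes. In each the knockout was higher, as for Opn1sw at means of 1947 FPKM in knockout and 981 FPKM in control. Over the lists 8 cone and 5 rod differences were negative, and none passed an adjusted p of 0.05 in limma. Rods have the same cilium, so a member's level may include RNA of rods, whose part was not tested. Müller glia markers (7 of 10 in the table) summed to 101.3 to 111 FPKM in knockout and 91.8 to 120.2 FPKM in control, and bipolar cell markers (9 of 11) to 97.7 to 109.9 FPKM in knockout and 87.1 to 124 FPKM in control. The glial genes Apoe and Clu (28.6% of 7 tested) and the bipolar gene Gng13 (14.3% of 7 tested) were apart, against 9.39% of all tested genes. In each the knockout was lower, with means of 2.32, 18.6 and 1.79 FPKM in knockout, against 4.06, 26.0 and 4.28 FPKM in control. In both lists 3 differences were positive and 4 negative, and none of these markers passed an adjusted p of 0.05 in limma. Their part in the members' values was not tested. Of the horizontal cell and pigment epithelium markers, 0 of 4 and 0 of 6 were in the table. Control 1 stood apart from the other libraries. All genes of the table summed to 84995 FPKM in control 1, against 102059 to 128773 FPKM in the other 5. The members made up 1.22% of that sum, against 1.08% to 1.22% in the others. How far low values in control 1 follow its lower sum was not tested. The mean correlation of control 1 to the others across genes was 0.90, against 0.93 to 0.95 for the other 5. It held 21.1 FPKM of the neuronal gene Stmn2, against 0.1 to 0.668 FPKM elsewhere. Of the other ganglion cell markers, Rbpms was highest there too, while Nefl and Nefh lay within the range of the other libraries. Arntl, the gene of BMAL1, had 3.37, 2.28 and 3.48 FPKM in knockout libraries, against 2.9998, 2.60 and 3.27 FPKM in control libraries. Its groups overlapped, and since the value covers the whole gene and not the floxed part it does not check the genotype labels. Read depth is unknown, because FPKM keep no read total. In such bulk samples fewer cells of a type and less RNA per cell cannot be told apart.

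Because BMAL1 acts through E-boxes and RFX factors control ciliary genes through a motif called the X-box, the promoters of the members were searched for both. RefSeq promoters (GRCm38.p6, 250 bases before to 50 after the start site) matched 70 of the 81 genes by symbol. The E-box CACGTG, which is its own reverse complement, was held by 6 of these 70 genes (8.57%), against 12.2% of the table's 7470 genes with a promoter and 8.09% of all 27025. The 6 were Arl3, Bbs7, Cep295, Cep63, Tulp4 and Wdr19. The X-box core, spelled as GTNNCC and GNNAC with NNN between them and searched on both strands, was held by 17 of the 70 (24.3%), against 7.03% of the table's genes and 5.26% of all genes. The cilium genes therefore held the X-box letters at a higher share than the table and the E-box letters at a lower one, which is a description without a test. In no member did an E-box match overlap an X-box match. A match is a run of letters and not a shown binding site, and a window without one says nothing of the factor.

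The 250 bases before the start site are shown for the 3 E-box genes whose library values are given in full further on, with the E-box in capitals.
Arl3 (chr19:46573183-46573432, minus strand): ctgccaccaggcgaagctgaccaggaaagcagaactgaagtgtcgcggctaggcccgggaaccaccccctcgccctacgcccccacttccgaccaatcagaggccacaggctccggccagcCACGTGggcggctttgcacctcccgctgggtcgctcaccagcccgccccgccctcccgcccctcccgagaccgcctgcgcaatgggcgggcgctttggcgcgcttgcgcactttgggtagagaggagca
Wdr19 (chr5:65199446-65199695, plus strand): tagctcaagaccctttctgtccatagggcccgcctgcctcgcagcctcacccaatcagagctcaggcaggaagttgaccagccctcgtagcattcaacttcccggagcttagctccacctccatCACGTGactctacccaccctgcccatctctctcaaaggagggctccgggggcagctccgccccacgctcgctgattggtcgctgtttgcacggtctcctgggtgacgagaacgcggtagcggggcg
Tulp4 (chr17:6106580-6106829, plus strand): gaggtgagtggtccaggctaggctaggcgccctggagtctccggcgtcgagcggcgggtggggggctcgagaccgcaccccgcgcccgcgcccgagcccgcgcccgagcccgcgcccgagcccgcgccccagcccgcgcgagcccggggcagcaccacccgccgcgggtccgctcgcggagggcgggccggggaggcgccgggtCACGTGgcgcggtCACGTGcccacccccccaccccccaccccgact
Tulp4 holds 2 E-boxes close together in 1 of its windows, and its other window holds none. Arl3, Wdr19 and Tulp4 had log2 differences between knockout and control of -0.56, 0.51 and -0.10. The positive value of Wdr19 rests on control 1, since without that library the differences were -0.70, -0.07 and -0.24. Over the 6 E-box genes 4 differences were positive, with a median of 0.06.

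Some of the X-box matches are shown next, read on the strand of the match, with the fixed letters of the motif in capitals.
Dync2h1 (chr9:7177030-7177043, minus strand): GTcgCCataGcgAC
Wdr19 (chr5:65199662-65199675, plus strand): GTctCCtggGtgAC
Bbs1 (chr19:4906613-4906626, minus strand): GTtgCCaagGcgAC
Bbs4 (chr9:59353472-59353485, minus strand): GTcgCCcggGaaAC
Ahi1 (chr10:20952568-20952581, plus strand): GTtaCCtagGcaAC
Mks1 (chr11:87853191-87853204, plus strand): GTtgCCaggGgaAC
Tctn1 (chr5:122264411-122264424, minus strand): GTtgCCcggGcaAC
Nphp4 (chr4:152477911-152477924, plus strand): GTctCCtagGtaAC
These genes belong to the transport dynein, IFT-A, the BBSome and the 2 transition zone modules. Matches not shown were in the IFT-B genes Ift22 and Ift57, and in Bbs7, B9d2, Tulp4, Cep112, Cep19, Cep44 and Cep83. The 17 X-box genes had a median log2 difference of 0.02 (12 positive), and the 52 tested genes with a promoter but no match had a median of 0.04 (29 positive).

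In sorted cones the members spanned a 203-fold range of level. Rpgrip1 was the most abundant at a mean of 174 FPKM over the 6 libraries, which ranked 49 among 9720 genes. Tulp1 at 150 FPKM (rank 65), Unc119 at 138 FPKM (rank 68) and Arl6 at 100.4 FPKM (rank 103) came next. These 4 genes held 46.1% of the summed FPKM of all members, and the 10 most abundant held 64.7%. The median member stood at 4.78 FPKM, near the 3.79 FPKM of the median gene in the table, and Cep192 was lowest at 0.858 FPKM. All 81 genes were above the table's lower limit of 0.1 FPKM in every library.

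**Figure D1:**
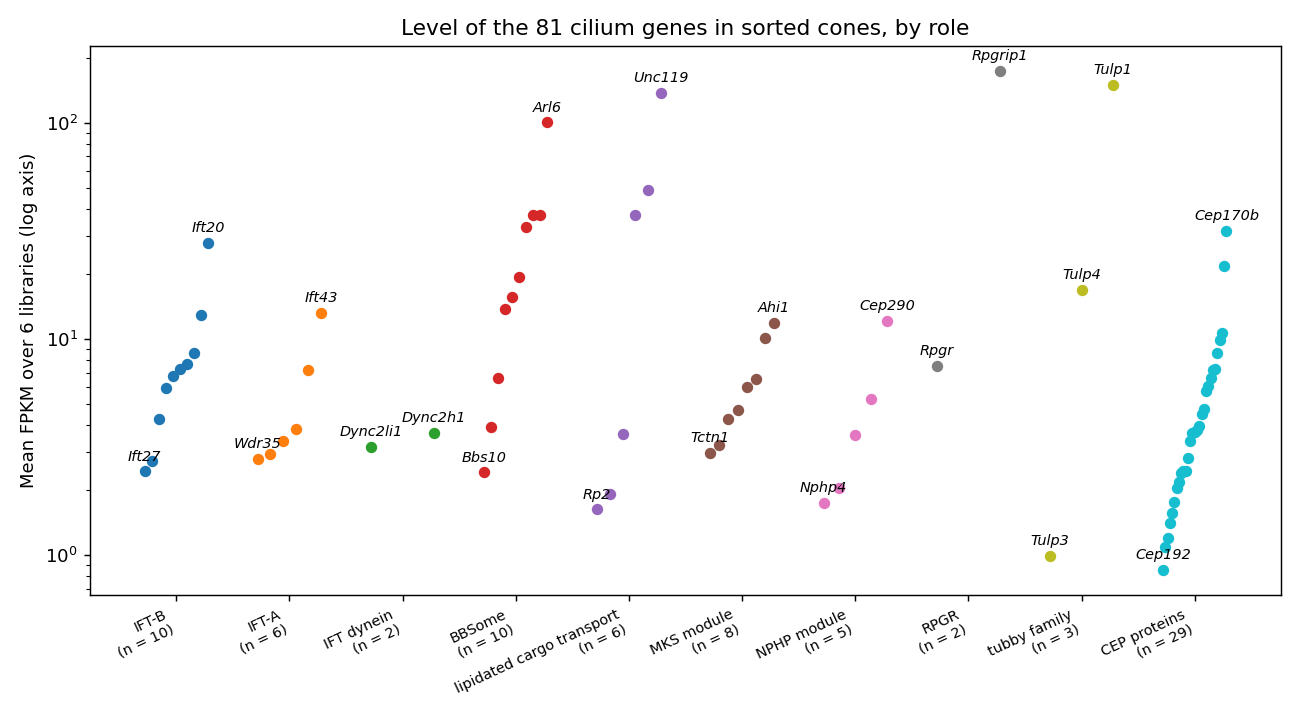
Mean FPKM over the 6 libraries (log axis) of each of the 81 cilium genes, grouped by role, with the highest and lowest gene of each role named. Rpgrip1, Tulp1, Unc119 and Arl6 stand at 100 FPKM or more, while most CEP, IFT-A and NPHP genes lie below 10 FPKM.

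Knockout and control were compared gene by gene with limma on log2(FPKM + 1), in which low genes show a compressed difference. Tests were limited to genes averaging 1 FPKM or more over the libraries, which kept 79 members and left out Cep192 and Tulp3. None of the 79 passed an adjusted p of 0.05 in limma in either direction, where 9 of 8627 tested genes did (0.104%), 4 higher (0.0464%) and 5 lower (0.058%). After every library was scaled to the same FPKM sum, 6 genes were higher and 5 lower, and again no member was among them. The smallest adjusted p of a member in limma was 0.68, for Cep162. An unadjusted p under 0.05 was reached by 3 members, Cep162, Rpgr and Iqcb1, or 3.80% of those tested, against 5.49% of all tested genes.

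The differences were small. The median log2 difference was 0.05 over the members and -0.02 over all tested genes, and 48 of 79 members were positive (60.8%), against 47.4% of all tested genes. No member of the 79 differed by 1 or more on the log2 scale. Few of all tested genes did (66 of 8627), so that count does not set the members apart. The median size of the log2 difference without regard to sign was 0.13 for the members and 0.17 for all tested genes. For 72 of 79 members (91.1%) the 95% interval excluded a log2 difference of 1 in both directions, against 85.4% of all tested genes. The 7 exceptions were Cep162, Cep70, Cep131, Cep250, Wdr19, Rpgr and Arl3. The sign of the median rests on control 1, since without that library it was -0.05, with 35 of 79 positive, and the median of all genes was -0.10.

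**Figure D2:**
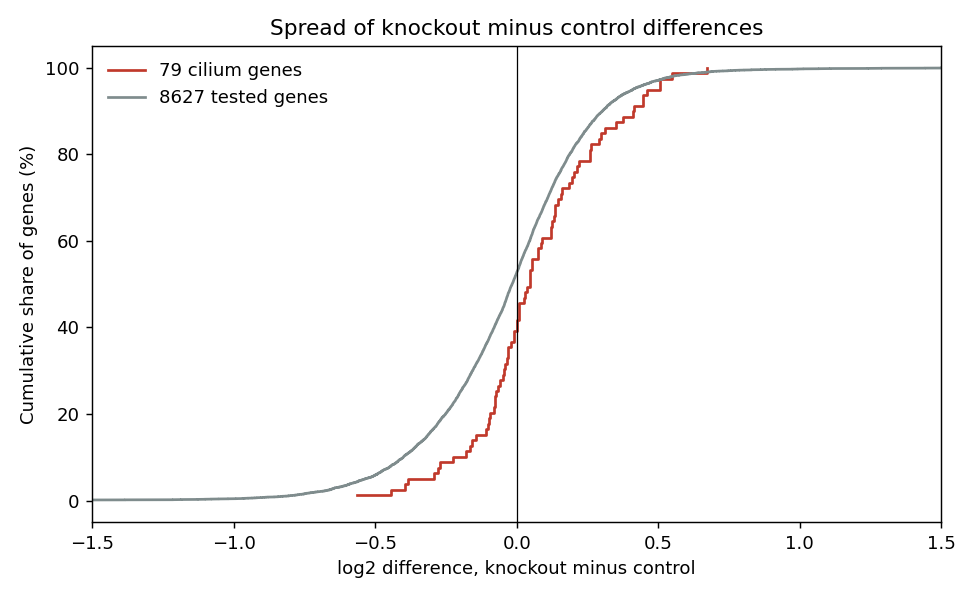
Cumulative share of genes (%) against the log2 difference, knockout minus control, for the 79 tested cilium genes (red) and all 8627 tested genes (grey). The members run from -0.56 to 0.67, and their curve lies to the right of the curve of all genes from -0.5 to 0.5.

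The knockout and control values did not overlap for 6 members, or 7.59% of those tested, against 9.39% of all tested genes. In all 6 the knockout was higher, where 3.52% of all tested genes were apart in that direction and 5.87% in the other. They were Cep162, Iqcb1, Cep290, Cep350, Cep135 and Dync2h1. These are values as deposited, not scaled to an equal FPKM sum. Such scaling closes the gap of Dync2h1 and widens those of Cep290 and Cep350. The total share is below that of the table, and the genes are taken up with their roles.

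**Figure D3:**
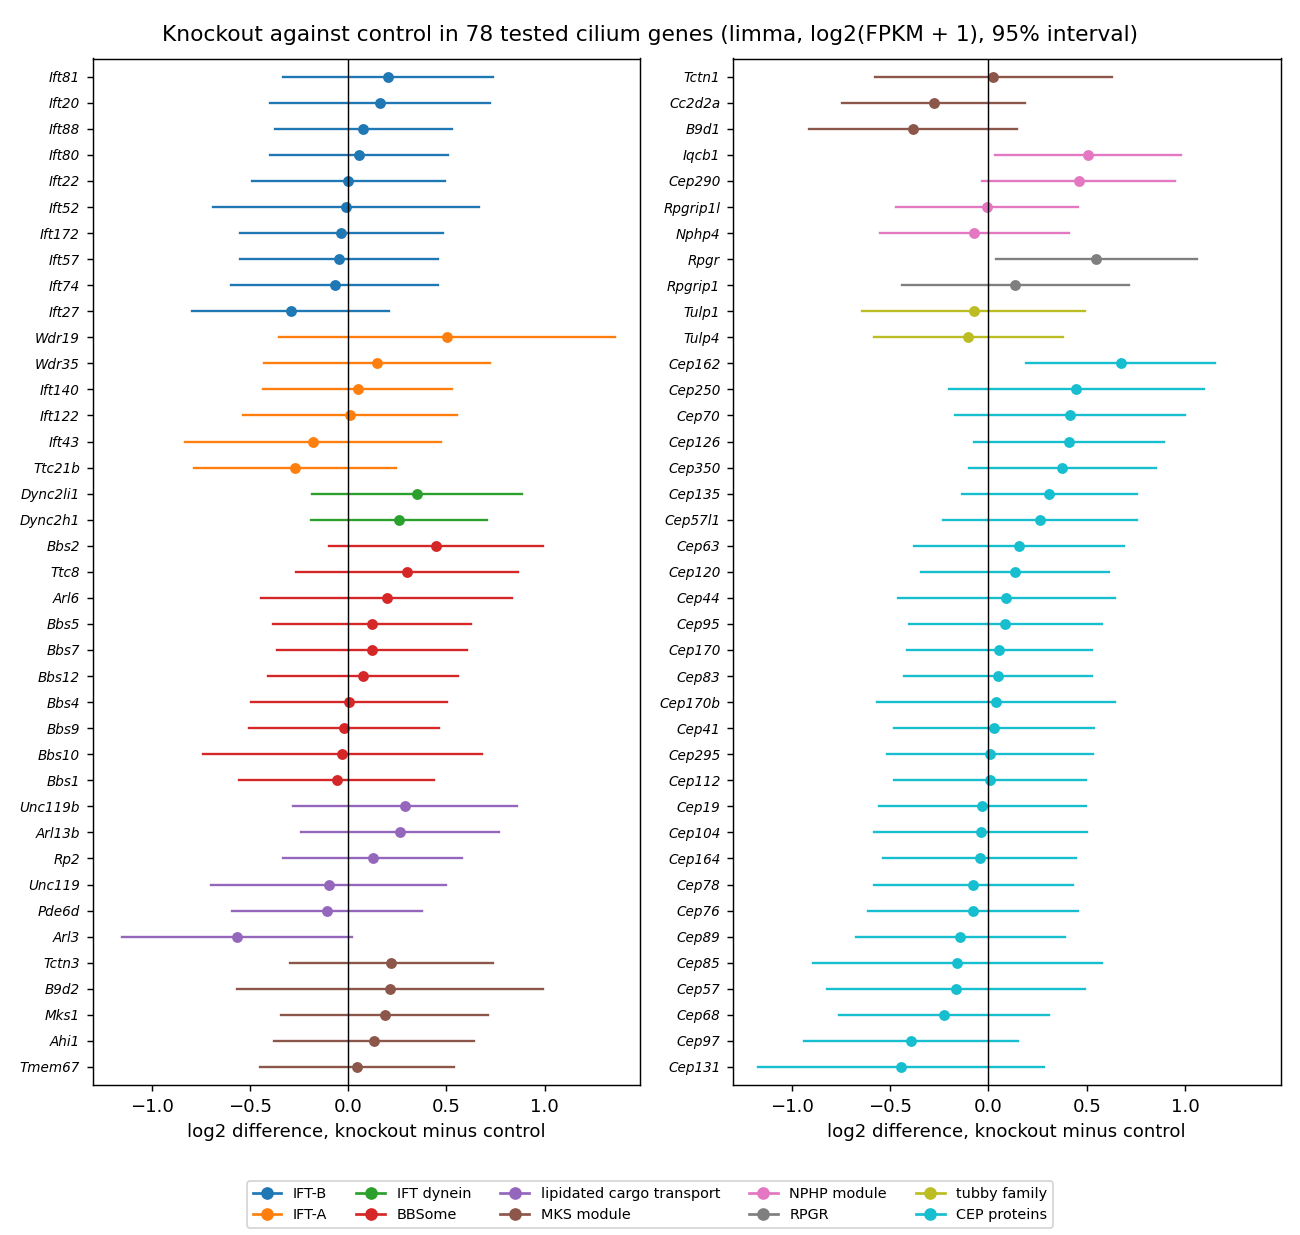
Log2 difference, knockout minus control, with its 95% interval from limma for 78 of the 79 tested cilium genes, coloured by role and sorted within it. The intervals of Cep162, Iqcb1 and Rpgr lie above 0 before adjustment, and those of the other genes shown include it.

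IFT trains are built from the IFT-B and IFT-A complexes. IFT-B, which links to the kinesin motor and carries cargo towards the tip, had 10 members, with means over the 6 libraries from 2.45 FPKM for Ift27 to 27.9 FPKM for Ift20. Subunits of 1 complex thus differed 11.4-fold in transcript level. Ift20, which also acts in sending proteins from the Golgi to the cilium, read 26.0, 33.3 and 28.2 FPKM in knockout and 18.4, 29.1 and 32.1 FPKM in control. The groups overlapped, with control 1 lowest. Ift27, a small GTPase that helps the BBSome leave the cilium, read 2.78, 1.39 and 2.21 FPKM in knockout and 2.78, 2.44 and 3.08 FPKM in control (log2 difference -0.29 ± 0.23, SE; adjusted p = 0.96, limma). It had the smallest p of its complex, its groups overlapped too, and its difference was -0.11 without knockout 2 and -0.44 without knockout 1. The tubulin-binding pair Ift81 and Ift74 averaged 13.9 ± 2.65 and 5.85 ± 1.86 FPKM in knockout, against 12.0 ± 2.89 and 5.99 ± 0.32 FPKM in control (mean ± SD, n = 3 each). Over the complex 5 log2 differences were positive and 5 negative, from -0.29 to 0.20, with a median of -0.00. The sign for Ift20 turned without control 1.

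IFT-A returns trains from the tip and brings membrane receptors into the cilium. Its 6 members had means from 2.79 FPKM for Wdr35 to 13.2 FPKM for Ift43. Wdr19, which encodes the subunit IFT144, read 9.84, 7.01 and 7.48 FPKM in knockout and 1.86, 7.96 and 9.04 FPKM in control. Control 1 was more than 3-fold below every other library, and the other controls lay within the range of the knockout values. Its log2 difference was 0.51 ± 0.39 (SE; adjusted p = 0.96, limma) over all libraries, -0.07 without control 1 and 0.83 without control 3. Ift43 read 15.8, 9.31 and 11.3 FPKM in knockout and 8.30, 17.8 and 16.7 FPKM in control, so the groups overlapped, and its sign turned without control 2. Of the complex, 4 members were positive and 2 negative.

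The dynein that pulls trains back had 2 members at similar levels. Dync2h1, its heavy chain, read 3.86, 4.46 and 3.94 FPKM in knockout and 3.48, 2.80 and 3.48 FPKM in control. As deposited, all knockout libraries were above all controls, by a narrow gap (log2 difference 0.26 ± 0.21, SE; adjusted p = 0.96, limma). Relative to the FPKM sum of each library, control 1 was above knockouts 1 and 3, so the groups then overlapped. Dync2li1, the light intermediate chain, read 3.88, 2.78 and 4.28 FPKM in knockout and 1.71, 3.30 and 3.02 FPKM in control. Its groups overlapped, control 1 was lowest, and its log2 difference of 0.35 was 0.15 without that library.

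The BBSome is a coat that carries membrane proteins out of the cilium, and it was abundant. Its core subunits Bbs2, Ttc8 and Bbs9 had means of 37.6, 37.5 and 32.9 FPKM over the 6 libraries, while Bbs1 had 6.62 FPKM. Arl6, the GTPase that recruits the coat to membranes, was the most abundant of the role. It read 92.04, 117 and 107 FPKM in knockout and 60.1, 105 and 121 FPKM in control, with control 1 lowest, and its sign turned without that library. Bbs2 read 55.0, 43.6 and 32.916 FPKM in knockout and 27.3, 33.8 and 32.919 FPKM in control. Knockouts 1 and 2 were above every control, and knockout 3 nearly met control 3. The log2 difference of Bbs2 was 0.45 ± 0.25 (SE; adjusted p = 0.91, limma), and 0.27 without knockout 1. Bbs10 and Bbs12, chaperonin-like proteins needed to assemble the coat, had means of 2.42 and 3.91 FPKM. Of the 10 members, 7 were positive and 3 negative, with a median of 0.10.

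Lipid-anchored proteins, among them cone transducin and phosphodiesterase, reach the outer segment on soluble carriers that the GTPase ARL3 unloads. Unc119, the carrier of acylated transducin alpha subunits, read 138, 109 and 150.2 FPKM in knockout and 106, 162.03 and 161.9 FPKM in control. Its groups overlapped, and its sign turned in 3 alternatives, without control 2, control 3 or knockout 2. Pde6d, the carrier of prenylated proteins, averaged 47.1 ± 3.14 FPKM in knockout and 50.9 ± 3.95 FPKM in control (mean ± SD, n = 3 each). Arl3 read 22.9, 26.8 and 41.6 FPKM in knockout and 36.1, 49.8 and 47.3 FPKM in control. Knockouts 1 and 2 were below every control, but knockout 3 was above control 1. This was the most negative difference of any tested member, at -0.56 ± 0.27 on the log2 scale (SE; 95% interval -1.15 to 0.02; adjusted p = 0.90, limma). Arl3 lies on chromosome 19, minus strand, positions 46531096 to 46573198 in GRCm38.

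The regulators of ARL3 were far lower than ARL3 itself. Rp2, which switches ARL3 off, averaged 1.74 ± 0.21 FPKM in knockout and 1.52 ± 0.28 FPKM in control, and Arl13b, which switches it on, averaged 2.17 ± 0.35 FPKM in knockout and 1.67 ± 0.61 FPKM in control (mean ± SD, n = 3 each). Unc119b, the paralog of Unc119, had a mean of 3.63 FPKM over the 6 libraries, against 138 FPKM for Unc119. Without Arl3, the log2 differences of this role ran from -0.11 to 0.29.

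The transition zone is a gate of Y-shaped links between microtubules and membrane, held by the MKS and NPHP modules. The 8 MKS members had means from 2.98 FPKM for Tctn1 to 11.9 FPKM for Ahi1. Ahi1, which encodes jouberin, read 14.3, 12.8 and 10.2 FPKM in knockout and 9.87, 9.93 and 14.2 FPKM in control, with the groups overlapping. B9d1, a B9-domain protein of the gate, read 6.43, 5.195 and 4.74 FPKM in knockout and 5.32, 9.58 and 7.77 FPKM in control. Control 1 lay among the knockouts and the other controls lay above them (log2 difference -0.38 ± 0.24, SE; adjusted p = 0.93, limma). That difference was -0.59 without control 1 and -0.21 without control 2. Its partner B9d2 read 3.93, 2.89 and 3.19 FPKM in knockout and 0.853, 3.64 and 4.99 FPKM in control, so control 1 was far below the rest. Cc2d2a, a coiled-coil and C2-domain gate protein, averaged 8.98 ± 0.70 FPKM in knockout and 11.2 ± 1.62 FPKM in control (mean ± SD, n = 3 each). In the MKS module 6 members were positive and 2 negative, and none was apart between the groups.

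The NPHP module had 5 members, of which 2 were apart between the groups. Cep290, a large coiled-coil protein of the Y-links whose loss blinds photoreceptors, read 16.6, 13.6 and 12.3 FPKM in knockout and 8.74, 9.38 and 12.03 FPKM in control. Knockout 3 and control 3 nearly met, and the log2 difference was 0.46 ± 0.23 (SE; 95% interval -0.03 to 0.95; adjusted p = 0.90, limma). Iqcb1, which encodes the CEP290-binding protein NPHP5, read 6.52, 6.50 and 6.07 FPKM in knockout and 3.38, 4.03 and 5.32 FPKM in control. The knockout libraries sat close together above all controls, with a log2 difference of 0.51 ± 0.22 (SE; 95% interval 0.03 to 0.98; adjusted p = 0.90, limma). Rpgrip1l and Nphp4, scaffold proteins of the gate, had log2 differences near 0, at -0.01 and -0.07. Exons of Cep290 overlap those of 4930430F08Rik by 881 bp on the opposite strand. The library kit was directional, but use of strand in counting was not given in the sources used here. That neighbour had means of 2.57 FPKM in knockout and 2.26 FPKM in control.

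RPGR is a guanine-exchange-like protein of the connecting cilium whose mutation causes X-linked retinal degeneration, and RPGRIP1 tethers it there. Rpgr read 11.2, 9.32 and 7.05 FPKM in knockout and 5.56, 5.02 and 7.19 FPKM in control. Only control 3 reached into the knockout range, just above knockout 3. The log2 difference of Rpgr was 0.55 ± 0.24 (SE; 95% interval 0.04 to 1.06; adjusted p = 0.90, limma). Rpgrip1 read 197, 165 and 181 FPKM in knockout and 162, 133 and 205 FPKM in control, so its groups overlapped, and its sign turned without control 2. The anchor was therefore 23.03-fold more abundant than Rpgr in mean level over the 6 libraries. FPKM per gene do not separate the retinal isoform of Rpgr from the constitutive one. Exons of Rpgrip1 overlap those of Supt16 by 1057 bp on the opposite strand, and Supt16 averaged 34.3 FPKM in knockout and 28.5 FPKM in control. Rpgr overlaps Srpx by 208 bp on the same strand, which strand cannot separate. Srpx gave 1.79, 0.252 and 0.285 FPKM in knockout, against 0.1, 0.641 and 0.848 FPKM in control, so both genes were highest in knockout 1. In all, 20 members overlap exons of another gene, 9 of them a gene of the table.

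Tubby proteins bind phosphoinositides and help bring membrane proteins into cilia, and their 3 members lay far apart in level. Tulp1, the photoreceptor-specific member, read 112, 166 and 163 FPKM in knockout and 149, 147 and 163 FPKM in control, with knockout 1 lowest. Tulp4 read 16.2, 16.9 and 15.3 FPKM in knockout and 14.2, 19.6 and 19.0 FPKM in control, which overlapped. Tulp3, which works with IFT-A in most ciliated cells, read 0.511, 0.684 and 0.682 FPKM in knockout and 1.54, 1.252 and 1.28 FPKM in control. These groups were apart, with the knockout lower, but its mean of 0.991 FPKM left it just under the limit for testing. In the fit without that limit Tulp3 had a log2 difference of -0.54 ± 0.22 (SE; unadjusted p = 0.030, adjusted p = 0.89, limma). Every gene of the table reached 1 FPKM in at least 1 library, and Tulp3 did so in control libraries only. Its place in the table thus rests on the higher group, so the gap and the unadjusted p cannot decide whether Tulp3 differed.

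The 29 CEP genes encode proteins of the centriole, the basal body and their satellites, and they were mostly low, with a median level of 3.72 FPKM. Cep162, which binds the axoneme at the transition zone and tethers CEP290, had the largest positive difference of the tested members. It read 7.29, 5.12 and 5.90 FPKM in knockout and 4.02, 2.83 and 3.49 FPKM in control, with every knockout library above every control. Its log2 difference was 0.67 ± 0.22 (SE; 95% interval 0.19 to 1.15; unadjusted p = 0.0099, adjusted p = 0.68, limma), and the adjusted p ranged from 0.17 with array weights to 0.9998 without knockout 2. Cep162 lies on chromosome 9 from 87189577 to 87255536, Cep290 on chromosome 10 from 100487558 to 100574840 and Iqcb1 on chromosome 16 from 36828385 to 36872721 (GRCm38).

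Both other CEP genes that were apart were higher in the knockout as well. Cep350, which binds microtubules at the centriole, read 12.0, 12.1 and 9.702 FPKM in knockout and 7.08, 8.66 and 9.684 FPKM in control, so knockout 3 and control 3 nearly met. Cep135, a protein of the centriole's cartwheel, read 1.97, 2.26 and 1.95 FPKM in knockout and 1.40, 1.28 and 1.74 FPKM in control. Their log2 differences were 0.38 ± 0.22 and 0.31 ± 0.21 (SE), with adjusted p of 0.92 and 0.93 in limma. Cep170b, the most abundant CEP gene, read 31.8, 24.6 and 39.7 FPKM in knockout and 21.5, 37.0 and 35.9 FPKM in control. Its groups overlapped widely, and its sign turned with array weights, without control 1 and without knockout 3.

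**Figure D4:**
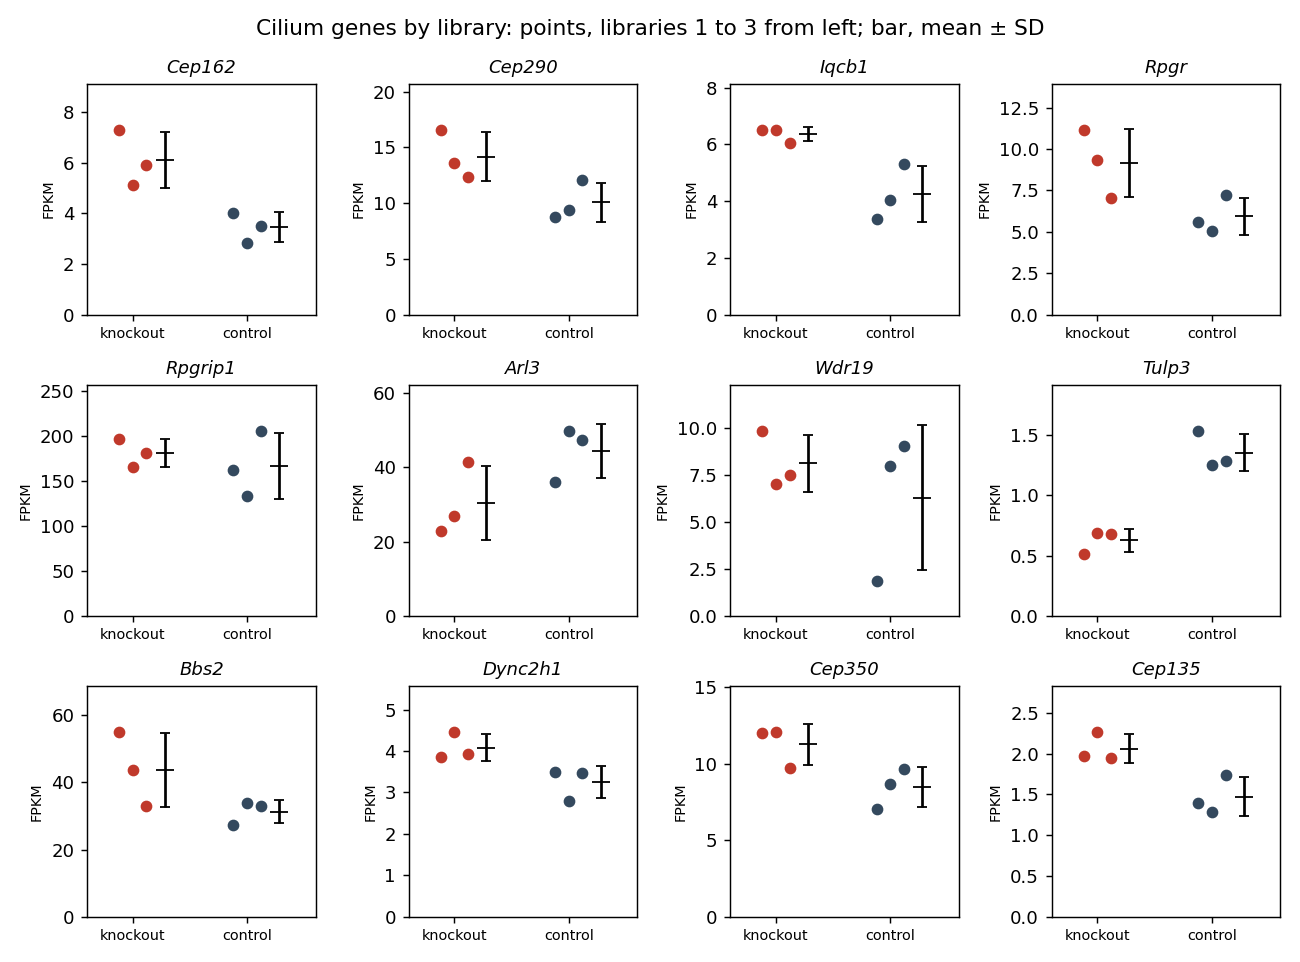
FPKM of 12 cilium genes in each library, with knockout in red on the left and control in dark blue on the right of each panel, and the mean ± SD (n = 3) as a bar beside the points; each axis starts at 0. Cep162, Iqcb1, Cep290, Cep350, Cep135 and Dync2h1 show no overlap with the knockout higher, Tulp3 none with the knockout lower, and control 1 lies far below the rest for Wdr19.

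The distal appendages that dock the basal body to the membrane had 3 members, Cep83, Cep89 and Cep164. They averaged 1.23 ± 0.06, 8.14 ± 1.97 and 3.69 ± 0.37 FPKM in knockout, against 1.18 ± 0.38, 9.09 ± 2.01 and 3.91 ± 1.11 FPKM in control (mean ± SD, n = 3 each). Cep97, which with CP110 caps centrioles, averaged 1.20 ± 0.33 FPKM in knockout and 1.95 ± 0.89 FPKM in control, with a log2 difference of -0.39. Cep131, a protein of centriolar satellites, averaged 1.61 ± 0.62 FPKM in knockout and 2.76 ± 1.57 FPKM in control, and its adjusted p in limma was 0.96 over all libraries and 0.22 without control 1. Cep250, which links the centrioles of a pair, averaged 8.58 ± 3.43 FPKM in knockout and 6.00 ± 2.33 FPKM in control, with knockout 1 at 12.5 FPKM. Cep78, mutated in cone-rod dystrophy with hearing loss, averaged 1.02 ± 0.03 FPKM in knockout and 1.17 ± 0.54 FPKM in control. Over the 28 tested CEP genes 17 differences were positive and 11 negative, with a median of 0.03.

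Low or high values gathered in some libraries. The values were not scaled to an equal FPKM sum, and that sum was lowest in control 1 and highest in control 3. Over the 79 tested members, control 1 held the lowest value of 37 (46.8%), against 39.1% of all tested genes. Control 3 held the highest value of 23 (29.1%), against 34.8% of all tested genes, and knockout 1 the highest value of 21 (26.6%), against 14.1% of all tested genes. The highest library was at least 3-fold above the lowest for 10 members (12.7%), against 17.2% of all tested genes. Among these were B9d2, Wdr19, Cep70, Bbs10, Cep131, Ift52, Cep85, Cep97 and Cep250, and control 1 was the lowest library in 5 of the 10. Ift52, a core IFT-B subunit, read 4.19, 4.38 and 3.64 FPKM in knockout and 1.87, 5.36 and 6.25 FPKM in control. Pde6d and Ift80 were the steadiest, with the highest library 1.27-fold above the lowest in both.

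**Figure D5:**
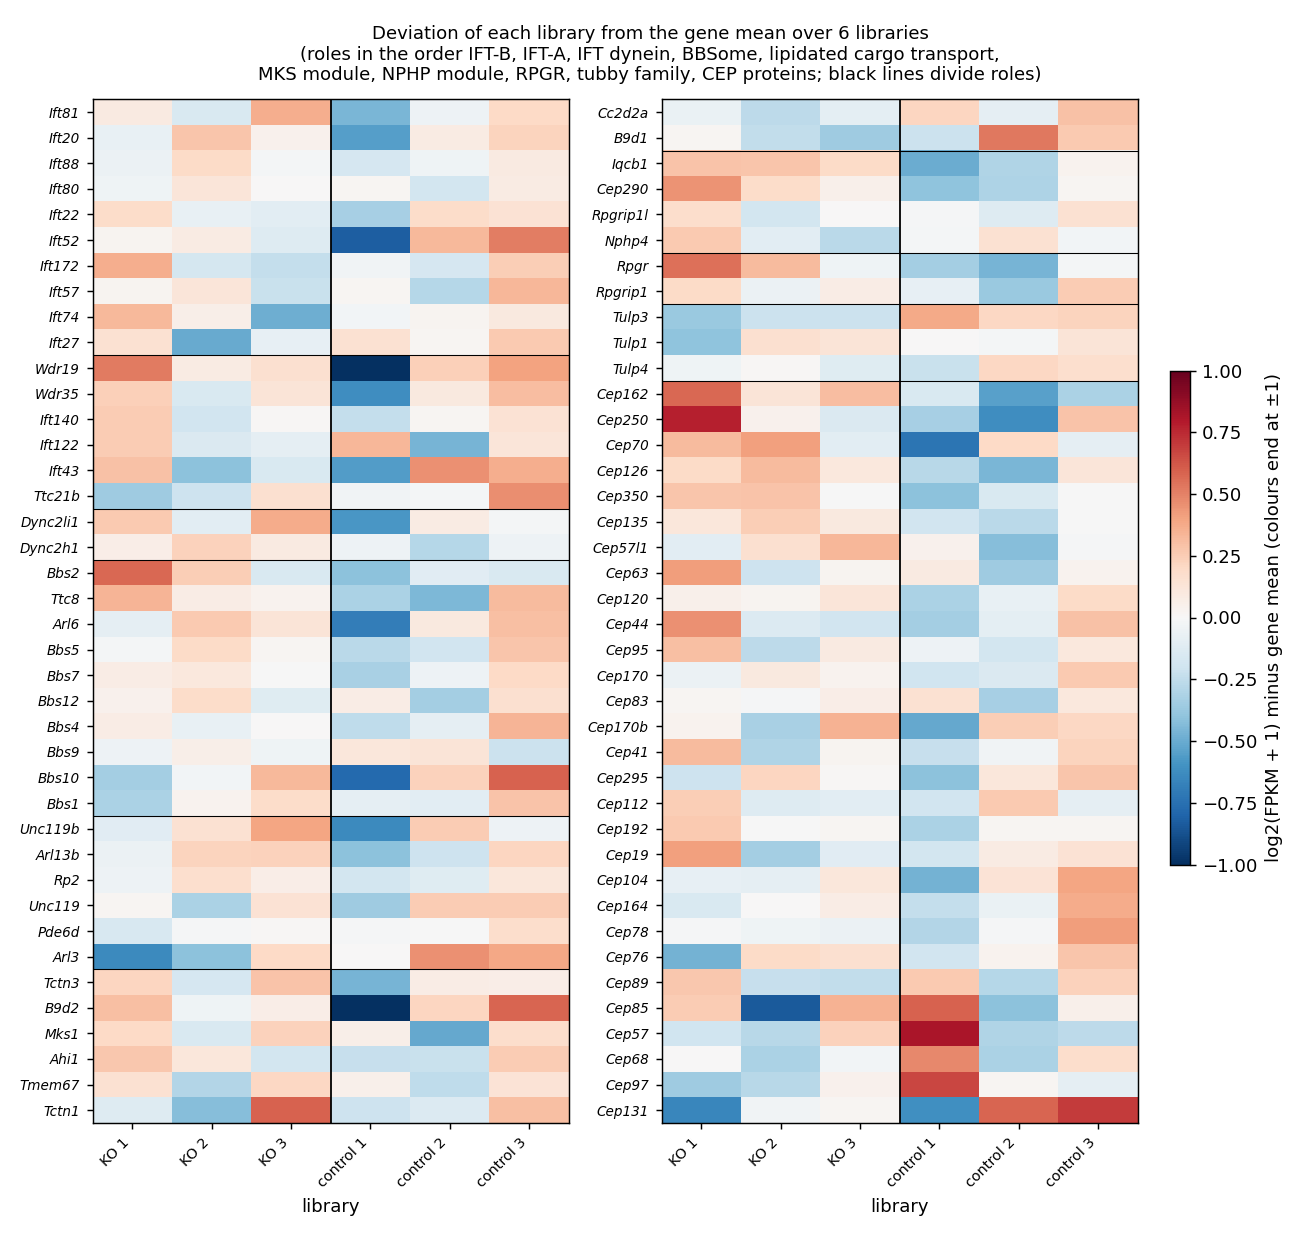
Deviation of log2(FPKM + 1) in each library from the gene's mean over the 6 libraries, for 80 of the 81 cilium genes in rows and the libraries in columns, with knockout (KO) left of control; red is above and blue below the mean, and colours end at ±1. Control 1 is blue in most rows, most deeply for B9d2, Wdr19 and Ift52, and control 3 is red in most.

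Genes of the same compartment outside the symbol rule gave a like picture. Of 90 further cilium genes listed from general knowledge, with earlier results of these data known, 72 were in the table and 71 were tested. None passed an adjusted p of 0.05 in limma, 2 reached an unadjusted p under 0.05 (2.82%, against 5.49% of all tested genes), and 41 were positive (57.7%, against 47.4%), with a median of 0.02. The sign of that median was not stable. Without control 1 it was -0.11, against -0.10 for all tested genes, and with array weights -0.05, against -0.04. The share with an unadjusted p under 0.05 in limma was under that of the table. Those 2 were Lztfl1, which regulates the BBSome, and Rp1, a protein of the photoreceptor axoneme. Lztfl1 read 16.1, 18.8 and 12.95 FPKM in knockout and 8.16, 11.4 and 12.1 FPKM in control, so the groups were apart. Rp1 read 33.4, 29.7 and 30.6 FPKM in knockout and 21.3, 20.2 and 25.01 FPKM in control, which were apart too. In all 4 genes of the list were apart (5.63%, against 9.39% of all tested genes), the others being Bbip1, a BBSome subunit, with the knockout higher, and Tmem218, a transition zone protein, with the knockout lower. Bbip1 averaged 8.32 ± 0.86 FPKM in knockout and 7.08 ± 0.18 FPKM in control. Tmem218 averaged 4.93 ± 0.38 FPKM in knockout and 6.75 ± 1.251 FPKM in control (mean ± SD, n = 3 each), and both were named after their values were seen. The adjusted p was 0.90 for both Lztfl1 and Rp1 in limma. The most abundant were Cdhr1, a photoreceptor cadherin, at a mean of 171 FPKM over the 6 libraries, and Dynll1, a dynein light chain, at 87.4 FPKM.

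Among regulators of ciliary genes, 5 of the 14 listed were in the table and none passed. Rfx3, the RFX factor most tied to primary cilia, averaged 5.93 ± 0.32 FPKM in knockout and 5.63 ± 1.33 FPKM in control, and Rfx7 averaged 7.30 ± 0.59 FPKM in knockout and 8.49 ± 3.21 FPKM in control (mean ± SD, n = 3 each). Genes of motile cilia served as a check for ciliated cells other than photoreceptors. The table held 6 of 45, and their summed level was 36.5 to 39.7 FPKM in knockout libraries and 15.2 to 21.8 FPKM in control libraries. Dnah9, an axonemal dynein heavy chain, was the largest part of that sum in every library, but most of it in knockout libraries only. Without Dnah9 the summed levels overlapped between the groups. It was the single gene of that list to pass, at 26.1 ± 1.27 FPKM in knockout and 7.90 ± 1.53 FPKM in control (adjusted p = 0.0084, limma). Dnah9 did not pass with the replicate block, without control 2 or without any 1 of the knockout libraries, and its adjusted p then reached 0.12. All 5 tested genes of the list were positive. Dnah9 and Rsph9 were apart (40%, against 9.39% of all tested genes) and had an unadjusted p under 0.05 in limma (40%, against 5.49%). Rsph9 averaged 1.59 ± 0.25 FPKM in knockout and 0.77 ± 0.53 FPKM in control (adjusted p = 0.90, limma). Whether other ciliated cells were present was not tested. Foxj1, the master regulator of motile cilia, was on both lists but was not found in the table under that symbol.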

How the data were processed

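RNA-seq values of 6 libraries were analysed. The authors deposited 1 table of FPKM values for 9720 protein-coding genes. Software and build are named without roles in the submitters' processing notes: mm10, TopHat2 2.1.0, Cufflinks 2.2.1, DESeq2 and HTSeq. The annotation and the fragments used for scaling were not given in the sources used here. Groups came from genotype labels. Positions came from GENCODE vM21 (GRCm38), in which all 81 members were found by gene ID.

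Values were compared as log2(FPKM + 1) with limma 3.58.1 in R 4.3.3 (eBayes with a variance trend, two-sided) over the 8627 genes averaging 1 FPKM or more, with Benjamini-Hochberg adjustment over all of them and a threshold of 0.05. Summaries used pandas 2.3.3 and figures matplotlib 3.10.9. FPKM give no depth, so precision rests on the spread of 3 libraries a group.

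The members and lists were chosen with earlier results of these data known. Named with library values were members past the threshold, members apart between groups with an unadjusted p under 0.05, the most abundant gene and that of smallest p in each role, and all members of roles with at most 4. Other members given by value, the single cell type markers, and Rfx3, Rfx7, Dnah9 and Rsph9, were chosen after their values were seen. The values of 1 member are not reported here. Alternatives covered the pseudocount, filter, scaling, variance trend, array weights, replicate block and each library left out.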

Additional observations from a re-analysis of the deposited data

How the results depend on the processing

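No cilium gene and no gene of the wider cilium list passed the threshold under any of the 16 alternatives. The smallest adjusted p of a member in limma was 0.17, for Cep162 with array weights. The members' median log2 difference ranged from -0.05 without control 1 to 0.15 without control 3. Over the alternatives that kept every library it ranged from 0.03 to 0.09. Medians of single libraries spread by an SD of 0.15 within groups. That SD cannot judge these shifts, because leaving out 1 of 3 libraries moves a group mean by only part of that library's deviation. Among the 22 genes followed through the alternatives, 12 of 347 values turned sign, all but 1 with a library left out. Over all genes, 11 were higher and 12 lower with array weights, against 4 and 5. With single libraries left out, 1 to 5 genes were higher and 5 to 8 lower, with 8 lower without control 1 and 1 higher without control 2 or knockout 2. Replicate numbers are not stated to pair libraries. Same-numbered deviations correlated at -0.12, -0.09 and -0.03, and other-numbered ones at -0.04 to 0.10. Being centred within groups of 3, these values cannot decide whether the libraries were paired. With the replicate block 1 gene was higher, and no cilium gene passed. Depth is unknown, and with 3 libraries a group the median half-width of a member's 95% interval was 0.52 on the log2 scale.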
